A study of Mus musculus with 38 samples.

Results

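The cells described here are the Placenta-like cells of the BMP4+ single-cell library, which the authors annotated as such in the deposited count table. They were selected by the condition and annotation in the names of the cell columns, with no filter added. They number 385 of the 11335 BMP4+ cells (3.40%, exact 95% interval 3.07 to 3.75%) and of the 20020 cells of both libraries. None of the 8685 cells of the BMP4- library carries this annotation, which at a limit of 3 cells leaves room for a share of 0.0345%. The other BMP4+ cells are annotated as Intermediate state (7125 cells), ParE (2372 cells, a label kept as deposited) and Endothelial cells (1453 cells). By its letters ParE could stand for parietal endoderm or for the primitive endoderm-like cells of the study. Among its major clusters the paper names primitive endoderm-like cells and no parietal endoderm.

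In this study, mouse embryonic fibroblasts (MEFs) were converted with JGES, which is a virus-delivered mixture of the factors Jdp2, Glis1, Esrrb and Sall4. The MEFs came from E13.5 embryos of either sex, from OG2 males, which carry an Oct4-GFP reporter, and 129S4/SvJaeJ females. After infection for 2 days both conditions were kept for 7 days in iCD3 medium (with mLIF, bFGF, TV, Vitamin C, CHIR99021, SGC0946, LSD1-HCL and Y27632), and BMP4 at 10 ng/ml was added to the BMP4+ cells alone. Each condition is 1 library, so nothing here carries a replicate error, no test between conditions or annotations was made, and intervals cover counting error only.

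The placenta forms largely from the trophoblast, an extra-embryonic epithelium set apart before implantation. Trophoblast stem cells depend on transcription factors such as CDX2, EOMES, ELF5 and TFAP2C. Their descendants include the labyrinth, where GCM1 drives branching and formation of the syncytiotrophoblast that exchanges nutrients between mother and fetus, the spongiotrophoblast, and giant cells that secrete hormones of the prolactin family. Many imprinted genes act in the placenta, among them Phlda2, which restrains its growth, and BMP4 is commonly used to drive pluripotent cells of some species toward trophoblast in culture.

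A total of 11878024 UMIs was counted in the Placenta-like cells, with a median of 28906 UMIs (range 8530 to 73056) and 5269 genes per cell. The other BMP4+ cells had a median of 20967.5 UMIs and 4393.5 genes. The median mitochondrial share was 1.93% in the Placenta-like cells and 2.45% in the others. The libraries share 2 cell barcodes, none of them in a Placenta-like cell. Xist without a Y-linked transcript was counted in 156 Placenta-like cells and a Y-linked transcript without Xist in 152, so the annotation holds cells of both sexes. Both kinds of transcript were counted in 58 of 385 Placenta-like cells, 323 of 2372 ParE, 144 of 1453 Endothelial and 937 of 7125 Intermediate state cells.

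Promoter sequences are shown for 4 genes that the results below turn on and for which a sequence was at hand, which are Phlda2, Wfdc2 and Gcm1 among the leading genes and the keratin gene Krt8 among the markers. Rhox6 and Rhox9 had no entry in the promoter table. Each sequence is the 250 bases before the RefSeq start of the gene (build GRCm38.p6), read along the gene's strand. In GENCODE vM21, used for gene positions below, these genes start further upstream. The Phlda2 and Wfdc2 windows therefore lie within the GENCODE gene spans, and the Gcm1 and Krt8 windows overlap them in part. Capitals mark matches on either strand to GATAA, the core bound by GATA factors, and to GCCNNNGGC, the palindrome bound by AP-2 factors such as TFAP2C. They lie at chr7:143502525-143502774 (minus strand) for Phlda2, chr2:164562465-164562714 (plus strand) for Wfdc2, chr9:78051708-78051957 (plus strand) for Gcm1 and chr15:102004343-102004592 (minus strand) for Krt8.
Phlda2: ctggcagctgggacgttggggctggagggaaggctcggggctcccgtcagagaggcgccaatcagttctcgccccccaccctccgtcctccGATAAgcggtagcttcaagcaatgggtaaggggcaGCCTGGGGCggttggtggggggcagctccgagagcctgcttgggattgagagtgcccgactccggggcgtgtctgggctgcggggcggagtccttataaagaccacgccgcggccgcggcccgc
Wfdc2: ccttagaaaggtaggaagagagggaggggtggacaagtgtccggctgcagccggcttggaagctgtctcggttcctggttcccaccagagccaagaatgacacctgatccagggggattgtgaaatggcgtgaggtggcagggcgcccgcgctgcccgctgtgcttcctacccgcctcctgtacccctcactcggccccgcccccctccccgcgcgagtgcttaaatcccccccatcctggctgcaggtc
Gcm1: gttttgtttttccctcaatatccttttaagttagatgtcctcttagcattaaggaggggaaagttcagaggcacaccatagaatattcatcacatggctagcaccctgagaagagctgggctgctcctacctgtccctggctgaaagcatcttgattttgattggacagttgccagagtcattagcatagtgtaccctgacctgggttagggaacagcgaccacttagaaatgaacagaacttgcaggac
Krt8: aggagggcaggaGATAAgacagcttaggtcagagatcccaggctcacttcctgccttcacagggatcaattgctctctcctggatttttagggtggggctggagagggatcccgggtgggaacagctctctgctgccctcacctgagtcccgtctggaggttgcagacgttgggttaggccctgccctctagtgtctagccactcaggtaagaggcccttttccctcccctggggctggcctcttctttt
The Phlda2 window holds 1 match to each motif and the Krt8 window 1 match to GATAA, while these letters are in neither of the other two windows. Of the 30 leading genes defined below, 22 had a promoter in the RefSeq table. GATAA was found in 3 of these 22 (13.6%), in 13.4% of the 6831 promoters of genes tested and in 23.0% of all 27025 promoters. GCCNNNGGC was found in 6 of 22 (27.3%), in 21.4% of promoters of genes tested and in 13.6% of all promoters. A GCM motif (CGGGT) and a grainyhead motif (ACCGGTT) were searched as well. CGGGT was found in 7 of 22 (31.8%) and in 40.8% of promoters of genes tested, and ACCGGTT in 0 of 22 and in 1.33%. The median GC content of the windows was 55.2% for leading genes and 60.8% for genes tested.

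First, the 6 genes taken as markers of this annotation were compared between the BMP4+ annotations. Levels are UMIs summed over the cells of an annotation and scaled to the total of these cells (CPM, the usual abundance unit of sequencing counts), with exact 95% Poisson intervals. The annotation was made from the same cells and genes, so these differences describe the label and are no independent evidence for it. Krt8, an intermediate filament of simple epithelia, was at 995 CPM (977 to 1013) in Placenta-like cells, 359 CPM in ParE, 93.2 CPM in Intermediate state and 48.5 CPM in Endothelial cells. Gata2, a transcription factor of trophoblast and of blood and vessel lineages, was at 247 CPM (238 to 256), against 77.8 CPM in Endothelial cells, 48.9 CPM in Intermediate state and 28.8 CPM in ParE. Spint1, an inhibitor of membrane proteases that is needed in the labyrinth, was at 127 CPM (121 to 134) and at 12.1 CPM or less in the other annotations. Its target protease gene St14 was at 53.5 CPM (49.4 to 57.8) and at 7.67 CPM or less elsewhere. Tfap2c was at 57.0 CPM (52.8 to 61.5), with the next level, 13.9 CPM, in Endothelial cells. Ovol2, a repressor that maintains epithelia, was at 51.4 CPM (47.4 to 55.6), with the next level, 15.9 CPM, in ParE. All 6 markers were thus highest in the Placenta-like cells, but the annotation that came next differed from marker to marker.

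Without BMP4, Tfap2c was at 29.5 CPM and Spint1 at 12.2 CPM in Pluripotent cells, while Krt8 was at 2.696 CPM and Gata2 at 1.52 CPM there. In BMP4- ParE cells Krt8 was at 106 CPM, Ovol2 at 21.7 CPM, Spint1 at 11.1 CPM and St14 at 6.35 CPM. Gata2 was at 2.645 CPM and Tfap2c at 1.59 CPM there. Without BMP4, no single annotation thus had all 6 markers at 10 CPM or more.

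Since the Placenta-like cells had more UMIs per cell, each BMP4+ cell was thinned to 6000 UMIs before shares of cells were compared. A Krt8 UMI was then found in 84.7% of Placenta-like cells (exact 95% interval 80.7 to 88.1%), 74.8% of ParE, 19.2% of Intermediate state and 13.8% of Endothelial cells. Gata2 was found in 64.2% (59.1 to 69.0%) of Placenta-like cells and in 13.2 to 30.7% of the other annotations. Spint1 was found in 43.1% (38.1 to 48.2%), Ovol2 in 29.1% (24.6 to 33.9%), St14 in 27.3% (22.9 to 32.0%) and Tfap2c in 23.4% (19.2 to 27.9%), with 7.88% or less in any other annotation. Without thinning, the shares in Placenta-like cells were 95.8% for Krt8, 89.9% for Gata2, 84.4% for Spint1, 61.6% for Ovol2, 60.3% for St14 and 59.2% for Tfap2c. Free RNA gives UMIs in cells that do not express a gene, and Kdr, a receptor of endothelial cells, was taken as a guide to it. Whether Kdr UMIs outside Endothelial cells are free RNA was not tested. Kdr was at 30.7 CPM in the other BMP4+ cells together and Krt8 at 151 CPM, so Kdr does not give the background of more abundant genes. Kdr was found in 0.779% of Placenta-like cells, 1.64% of ParE, 1.70% of Intermediate state and 50.7% of Endothelial cells at 6000 UMIs.

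Next, all genes were compared between Placenta-like cells and the other BMP4+ cells pooled. Of 8566 genes with at least 10 CPM in either, 530 (6.19%) were higher and 788 (9.2%) lower by at least 1 on the log2(CPM + 1) scale, and the median over all genes tested was 0.175. Across genes, which are not independent replicates, Pearson's r of the log2(CPM + 1) levels was 0.872 with ParE, 0.842 with Endothelial cells and 0.815 with Intermediate state. Against ParE alone 641 genes (7.68% of 8342) were higher and 532 (6.38%) lower, against Endothelial cells 837 (10.0% of 8355) and 530 (6.34%), and against Intermediate state 1176 (13.6% of 8655) and 988 (11.4%). ParE was thus the nearest of the other annotations by both measures.

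The 30 leading genes are those with the largest difference from the other BMP4+ cells among genes at 20 CPM or more and with a UMI in at least 25% of Placenta-like cells. Wfdc2, which encodes a secreted protein of the protease-inhibitor type, led with 1346 CPM (1325 to 1367) against 10.4 CPM in ParE, 6.32 CPM in Intermediate state and 4.87 CPM in Endothelial cells, a 189.7-fold higher level than in the pooled cells. The homeobox genes Rhox6 and Rhox9, both known from placenta, followed. Rhox6 was at 718 CPM (703 to 733) and at 19.5 CPM or less in the other annotations. Rhox9 was at 405 CPM (394 to 417) and at 15.4 CPM or less in the other BMP4+ annotations. Among the BMP4+ annotations both had their second highest level in Endothelial cells.

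Phlda2 had 42752 UMIs, 3599 CPM (3565 to 3634), against 144 CPM in ParE, 109 CPM in Endothelial cells and 28.0 CPM in Intermediate state. Gcm1 was at 41.2 CPM (37.6 to 44.98) and at 0.309 CPM or less in the other annotations, where 28 UMIs of it were counted in all 10950 cells. After thinning to 6000 UMIs, a Gcm1 UMI was found in 58 of 385 Placenta-like cells (15.1%), 0.126% of ParE and no Endothelial or Intermediate state cell, while Phlda2 was found in 79.0% (74.5 to 82.9%), against 35.3% of ParE, 22.1% of Endothelial and 8.81% of Intermediate state cells. Gcm1 was therefore all but undetected in the other annotations at this depth, whereas Phlda2 UMIs were found in each of them. The part of free RNA in the latter was not tested.

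**Figure D1:**
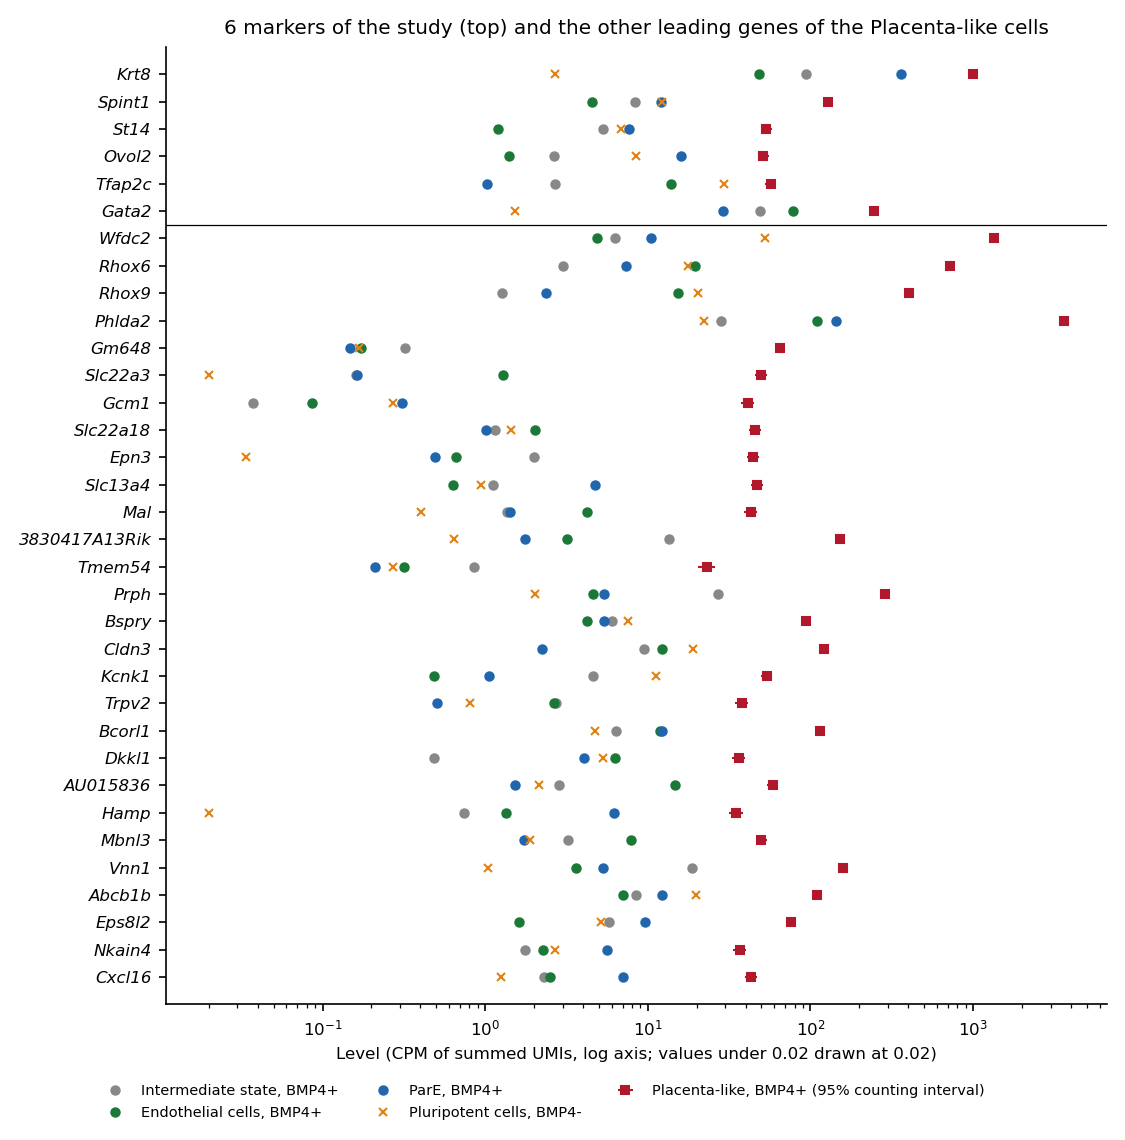
Levels of the 6 markers of the study and of the other leading genes, in CPM of summed UMIs on a log axis, in the 4 BMP4+ annotations and in the BMP4- Pluripotent cells. Squares with bars are the Placenta-like cells with 95% counting intervals. The Placenta-like level is the highest of those drawn for every gene, all of them chosen for this contrast or as its markers, and the other annotations change places from gene to gene.

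Other leading genes are named singly here, and no count of transporters or membrane proteins was set against all genes tested. Slc22a3, an organic cation transporter, was at 49.8 CPM (45.8 to 53.9) against 1.29 CPM or less elsewhere. Slc22a18, another solute carrier, was at 45.6 CPM (41.9 to 49.6) and Slc13a4, a sulfate transporter of placenta, at 47.0 CPM (43.2 to 51.0), with 4.74 CPM or less of either in the other annotations. Also among them were the raft protein gene Mal (42.9 CPM), the tight junction gene Cldn3 (121 CPM), the potassium channel gene Kcnk1 (54.0 CPM), the cation channel gene Trpv2 (37.9 CPM), the drug efflux pump gene Abcb1b (109.8 CPM) and the endocytic adaptor gene Epn3 (44.4 CPM). Abcb1b and Cldn3 were at 12.3 CPM in the annotation next to them, ParE for Abcb1b and Endothelial cells for Cldn3.

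Some leading genes are best known from other cell types. Prph, an intermediate filament of neurons, was at 289 CPM (279 to 299) and next highest in Intermediate state, at 27.1 CPM. Vnn1, a pantetheinase, was at 158 CPM (151 to 165) against 18.6 CPM in Intermediate state. Hamp, the iron hormone hepcidin of the liver, was at 34.9 CPM (31.6 to 38.4) and at 6.23 CPM in ParE. Prph was found in 41.3% and Vnn1 in 43.1% of Placenta-like cells thinned to 6000 UMIs.

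Of the 30 leading genes, 7 lie on the X chromosome (Rhox6, Rhox9, Gm648, Bcorl1, Mbnl3, AU015836 and 3830417A13Rik). The X chromosome held 3.33% of the genes tested with a position, 6.23% of those higher in Placenta-like cells and 3.55% of those lower. The Rhox cluster was looked at in full after these values were seen. Of its 20 genes in the table, Rhox5, Rhox6 and Rhox9 reached 10 CPM and each was higher by at least 2-fold, while the other 17 were at 1.26 CPM or less in Placenta-like cells. Rhox5 was at 513 CPM (500.0 to 525.8), with 282 CPM in ParE, 132 CPM in Endothelial cells and 21.8 CPM in Intermediate state, and in BMP4- Pluripotent cells it was at 346.5 CPM. The Rhox2 and Rhox4 members are near-identical copies, and their counts are uncertain because reads may be split among them or dropped.

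Without BMP4, none of the 30 leading genes reached its Placenta-like level in any annotation. Their summed level was 8077 CPM in Placenta-like cells, 206 CPM in the other BMP4+ cells and 243 CPM in BMP4- Pluripotent cells. In the Pluripotent cells 9 of the 30 were at 10 CPM or more, among them Wfdc2 at 52.6 CPM, Tfap2c, Phlda2 at 22.2 CPM, Rhox9 at 20.3 CPM and Rhox6 at 17.8 CPM. In the BMP4- Intermediate state cells 2 of the 30 were, Phlda2 at 35.0 CPM and Wfdc2 at 20.1 CPM.

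At the level of single cells, the 30 leading genes together gave a median of 63.3 UMIs per 10000 UMIs of a Placenta-like cell (10th to 90th percentile 8.65 to 186). The median was 1.73 in ParE, 1.11 in Endothelial and 0.847 in Intermediate state cells. The genes were chosen for their difference in these same cells, so a gap between the medians was given by the choice. Phlda2 alone made up 3599 of their summed 8077 CPM in Placenta-like cells, so it weighs most in these values. The 10th percentile of the Placenta-like cells was exceeded by 102 ParE, 92 Endothelial and 190 Intermediate state cells, and their median by 2 Endothelial cells. Placenta-like cells thus ranged widely, and those with the least of these genes overlapped cells of other annotations.

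**Figure D2:**
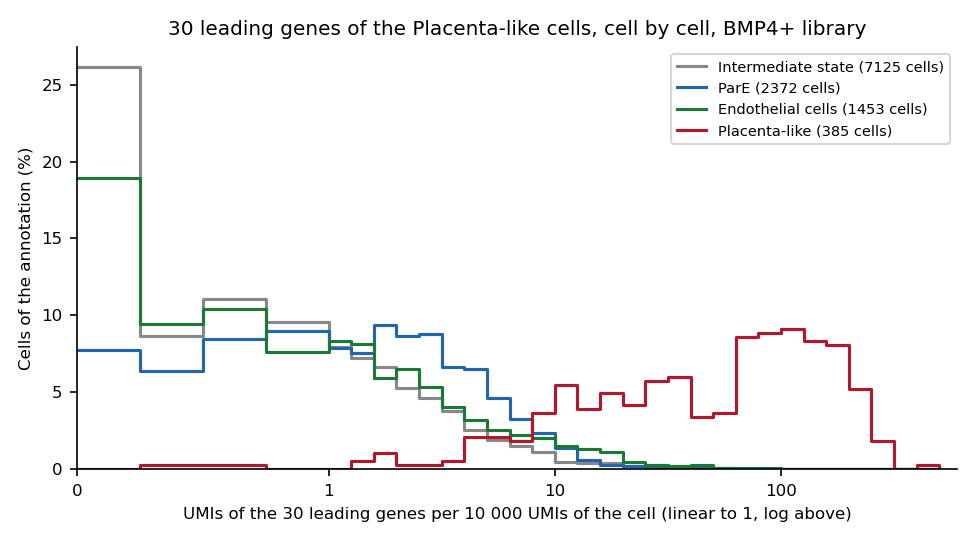
Share of the cells of each BMP4+ annotation (y axis, %) by the UMIs of the 30 leading genes per 10000 UMIs of the cell (x axis, linear to 1 and log above). Placenta-like cells spread over more than a decade around a median of 63.3, and the other annotations lie mostly below 10, with tails that overlap the lowest Placenta-like cells. The genes were chosen for their difference in these same cells.

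To learn which parts of the trophoblast program these cells carry, gene lists were compared. The lists were written for this tissue, with earlier results of these data known. Each count of list members stands beside the 6.19% higher and 9.2% lower among all genes tested. A gene that reached 10 CPM in 1 group alone could be higher only in that group, so these counts are descriptions. Of 18 trophoblast transcription factors, 12 passed the limit of 10 CPM. Of these, 7 were higher and 1 lower by at least 2-fold, and the median difference was 1.18. Tfap2c, Gata2 and Ovol2, among the 7, are markers of the annotation. Gcm1 (0.109 CPM), Tfap2c (3.83 CPM), Ovol2 (5.65 CPM) and Hand1 (2.28 CPM) were under this limit in the pooled cells. They passed it only through the Placenta-like cells. Beside Gcm1, Tfap2c, Gata2 and Ovol2, the 7 included Msx2 at 132 CPM (125 to 138) against 58.2 CPM in Intermediate state, Esx1, an X-linked homeobox gene of the placenta, at 40.0 CPM (36.5 to 43.8) against 27.04 CPM in Intermediate state, and Hand1, a factor of giant cells and mesoderm, at 14.9 CPM (12.8 to 17.3) against 3.43 CPM in Endothelial cells. Dlx3, a partner of Gcm1 in the labyrinth, was lower, at 26.0 CPM (23.2 to 29.1) against 131 CPM in Intermediate state. Gata3 was at 28.8 CPM (25.8 to 32.0) and was higher, 40.2 CPM, in Intermediate state.

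Of the trophoblast stem cell factors named above, Elf5, Eomes and Cdx2 were counted rarely, unlike Tfap2c. Elf5 was at 1.01 CPM (12 UMIs), Eomes at 0.842 CPM (10 UMIs) and Cdx2 at 4.88 CPM (58 UMIs). Elf5 was higher than in the other BMP4+ annotations, which had 0 to 0.162 CPM, and without thinning it was found in 9 of 385 Placenta-like cells (2.34%) and in 0 to 0.351% of the others. Eomes was higher in each other BMP4+ annotation, at 2.11 to 4.25 CPM, and Cdx2 was at 6.25 CPM in ParE. After thinning to 6000 UMIs, Eomes was found in 0.519% of Placenta-like cells and in 0.954 to 2.57% of the other annotations, and Elf5 in 1 Placenta-like cell (0.260%) and in 0 to 0.0702% of the others, levels near that of 1 UMI. Cdx2 was found in 2.34% (1.07 to 4.39%) of them and 2.78% of ParE cells. Its 58 UMIs came from 13 cells without thinning, so a few cells held several UMIs each.

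Genes known from differentiated placental cells were partly measured and differed from each other. Of 9 syncytiotrophoblast genes 7 were tested, with a median of -0.38, and their summed level was 591 CPM, against 493 to 620 CPM in the other annotations. Syna, a fusion gene of the syncytiotrophoblast, had no UMI in the 385 cells, and of the other syncytiotrophoblast genes tested Gcm1 and the lactate transporter gene Slc16a3 (142 CPM, against 59.2 to 72.8 CPM) were higher by at least 2-fold, while Stra6 and Epha4 were lower. The prolactin family genes Prl2c2 and Prl8a9, the pregnancy glycoprotein gene Psg21 and the cathepsin gene Cts7 had no UMI either. A gene without a UMI in the summed cells has an upper limit of 0.311 CPM. Another 9 of 16 spongiotrophoblast and giant cell genes, Tpbpa, Prl3d1 and Prl3b1 among them, and the syncytiotrophoblast gene Synb were not analysed here, so these cell types could not be assessed by their main markers. Among the trophoblast factors beyond the 6 markers, Gcm1, Hand1, Esx1 and Msx2 were thus higher by at least 2-fold, Dlx3 was lower, and Gata3, Ets2, Arid3a and Bhlhe40 did not differ by 2-fold.

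Epithelial genes were mostly higher. Of 20 simple epithelium genes, 15 were tested, 12 were higher, none was lower by at least 2-fold, and the median difference was 2.16. Krt8, a marker of the annotation, is among the 12. Krt18, the partner of Krt8, was at 1641 CPM against 538 CPM in ParE. Cdh1, the adhesion protein E-cadherin, was at 83.0 CPM against 22.6 CPM in ParE, and Cldn4 at 83.5 CPM against 13.8 CPM in Intermediate state. Krt7, a keratin of trophoblast, was at 43.8 CPM against 6.09 CPM in Intermediate state. ParE shared part of this list, with Cldn7 at 79.3 CPM there and 67.7 CPM in Placenta-like cells, and Cldn6 at 100.1 CPM there and 26.7 CPM in Placenta-like cells. Krt19 was at 247 CPM and did not differ by 2-fold from ParE (268 CPM) or Intermediate state (226 CPM).

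Among 9 labyrinth epithelium genes, 5 of 7 tested were higher than in the pooled cells. These were Spint1 and St14, both markers of the annotation, Epcam (281 CPM), Spint2 (143 CPM) and the St14 partner Prss8 (39.4 CPM). Lifr was lower (12.5 CPM). Against ParE alone, Spint1, St14 and Prss8 were higher by at least 2-fold. Epcam (206 CPM in ParE) and Spint2 (72.6 CPM) did not differ from ParE by 2-fold. Without BMP4, Spint2 was above its Placenta-like level in ParE (241 CPM) and Pluripotent cells (158 CPM). Of 25 genes of stratified epithelium, 7 were tested and 4 were higher, with Krt14 at 39.5 CPM against 11.4 CPM or less and Sfn at 70.6 CPM against 36.1 CPM or less. Krt5, the usual partner of Krt14, was lower at 8.67 CPM against 54.4 CPM in Intermediate state, and Trp63, the master factor of stratified epithelia, was at 0.842 CPM. The median of the tested genes of this list was 1.503, and with no filter on level, so that low genes enter, it turned to -0.015.

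Imprinted genes of the placenta differed in both directions. Of 15 genes, 13 were tested, 4 were higher and 3 were lower, beside 6.19% and 9.2% of all genes, and the median difference was 0.370 beside 0.175. Higher were Phlda2, Slc22a18, Sfmbt2 (143 CPM against 40.4 CPM or less), a Polycomb-type gene needed in trophoblast, and Peg10 (1216 CPM against 555 CPM or less), a retrotransposon-derived gene required for placenta formation. Lower were Mest (107 CPM), Dlk1 (24.3 CPM) and Plagl1 (19.6 CPM), which were highest in Endothelial cells, at 1574 CPM for Mest and 298 CPM for Dlk1, or in Intermediate state, at 79.5 CPM for Plagl1. Cdkn1c was at 1763 CPM, H19 at 4040 CPM and Igf2 at 55.3 CPM, and none of these differed by 2-fold from the pooled cells.

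Phlda2 (chr7:143501545-143503150, mm10, GENCODE vM21) and Slc22a18 (chr7:143473736-143499334) are neighbours in the imprinted Kcnq1 domain, which was examined further after their levels were seen. Of 12 genes of the domain, 7 were tested, 2 were higher and 1, Cd81, was lower. The adjacent Cdkn1c (chr7:143458339-143461050) and the noncoding RNA of the domain, Kcnq1ot1 (335 CPM against 278 to 386 CPM in the other annotations), did not differ by 2-fold from the pooled cells, nor did Nap1l4 (126 CPM) and Tssc4 (31.9 CPM). In the Igf2r domain on chromosome 17, Slc22a3 (chr17:12418960-12507704) was higher, while Igf2r was at 175.5 CPM against 104 to 155 CPM and the noncoding RNA Airn at 32.7 CPM against 19.6 to 33.9 CPM. The counts do not separate alleles.

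**Figure D3:**
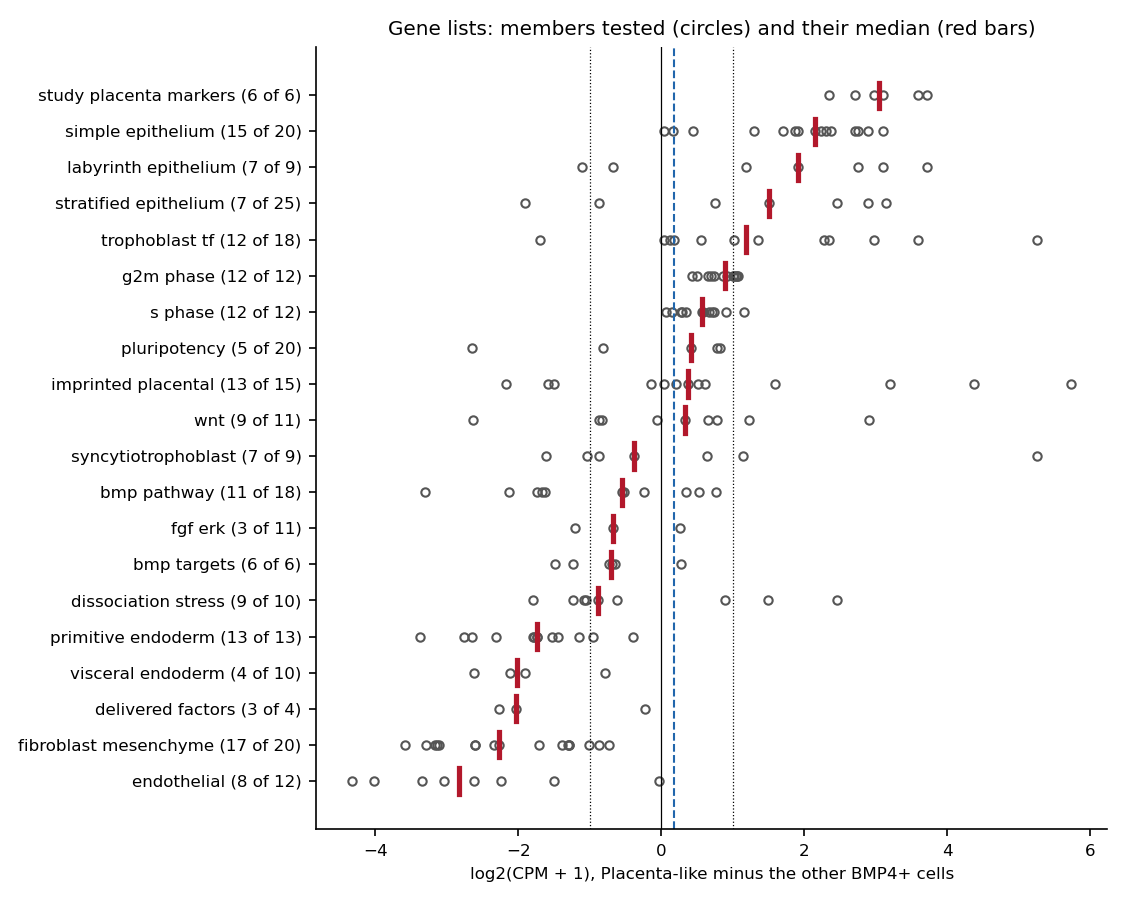
Difference of log2(CPM + 1) between Placenta-like cells and the other BMP4+ cells for the tested members of each gene list (circles), with the list's median (red bars). The dashed blue line is the median of 0.175 over all genes tested, dotted lines mark 2-fold differences, and numbers in brackets are members tested of all in the list. Epithelial lists lie on the right and the endothelial, mesenchymal and endoderm lists on the left.

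Most tested genes of the other annotations and of the starting fibroblasts were lower, with exceptions given below. Of 20 fibroblast and mesenchyme genes 17 were tested and 15 were lower than in the pooled cells, none higher, with a median of -2.27. Their sum was 734 CPM in Placenta-like, 1092 CPM in ParE, 2554 CPM in Endothelial and 3084 CPM in Intermediate state cells. Some members differed little from ParE and Endothelial cells, such as Col1a1 (19.9 CPM, against 21.8 and 18.5 CPM there). Col1a2 was at 17.5 CPM against 331 CPM in Intermediate state, Postn at 17.6 CPM against 276 CPM, Twist1 at 6.99 CPM against 96.5 CPM and Vim at 335 CPM against 689 to 903 CPM in all 3 others. All 13 genes of primitive endoderm were tested, and 11 were lower than in the pooled cells, which include ParE, with Gata4 at 3.20 CPM against 78.3 CPM and Dab2 at 9.85 CPM against 433 CPM in ParE. Of 8 endothelial genes tested 7 were lower than in the pooled cells, which include the Endothelial cells, with Kdr at 2.10 CPM against 203 CPM in Endothelial cells and Erg without a UMI. Summed over their lists, primitive endoderm genes came to 432 CPM in Placenta-like, 3397 CPM in ParE, 452 CPM in Endothelial and 169 CPM in Intermediate state cells, and endothelial genes to 106 CPM in Placenta-like, 1591 CPM in Endothelial, 153 CPM in ParE and 58.4 CPM in Intermediate state cells. In Placenta-like cells, the larger part of the primitive endoderm and endothelial sums came from 1 gene each. These were Cited1 (237.5 CPM, a UMI in 83.4% of cells) and Egfl7 (88.6 CPM, in 80.3% of cells).

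Macrophage markers were at or near 0, with Ptprc, C1qa and C1qc without a UMI and a list sum of 14.3 CPM, of which Csf1r, a receptor also known in trophoblast, made up 11.03 CPM. Of 20 pluripotency genes 5 were tested, none was higher and 1, Tdh, was lower (12.7 CPM), too few to set against the share of all genes. Nanog was at 0.253 CPM and Sox2 at 1.26 CPM, against 99.9 and 217 CPM in the BMP4- Pluripotent cells. The 15 genes lowest against the pooled cells included Slpi (8.42 CPM against 372 CPM in Intermediate state), Iapp (44.3 CPM against 1700 CPM) and the parotid-type genes Dcpp1 (126 CPM against 1842 CPM) and Dcpp2 (102 CPM against 1445 CPM), near-identical copies whose counts are uncertain. In all, 12 of these 15 were highest in Intermediate state, Cldn5 and Gm14226 in Endothelial cells and Dab2 in ParE.

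Next, usual targets of the added ligand were compared between the annotations of the BMP4+ library, all of which had received it. No cell without BMP4 is annotated as Placenta-like, so a response of these cells could not be read. None of the 6 BMP targets was higher and 2 were lower by at least 2-fold, with a median of -0.71, and with 6 genes none higher is near what the 6.19% of all genes gives. Id1 was at 355 CPM in Placenta-like cells and at 392 to 629.5 CPM in the other BMP4+ annotations, and Id3 was at 419 CPM against 458 to 789 CPM. Bambi, a decoy receptor, was at 98.1 CPM against 385 CPM in Intermediate state and 64.6 CPM in ParE, and Smad6 at 19.3 CPM against 25.5 to 52.8 CPM. Smad7 was at 141 CPM, the highest of the 4 annotations. For comparison, Id1 was at 202 CPM and Smad7 at 15.2 CPM in BMP4- Intermediate state cells. The receptor gene Bmpr1a was at 66.6 CPM and the effector gene Smad4 at 60.0 CPM, neither of them different by 2-fold. Of the 11 tested genes of this list of ligands, receptors and inhibitors, none was higher and 5 were lower (Bmp2, Bmp4, Bmp7, Grem1 and Fst), beside 9.2% of all genes. Bmp4 itself was at 13.8 CPM against 71.45 CPM in Intermediate state, and Fst, a secreted antagonist, at 13.05 CPM against 217 CPM in ParE.

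In the Wnt list, Lgr5, a receptor for R-spondins, was at 147 CPM against 72.6 CPM in Endothelial cells and 12.8 CPM in ParE, and Tcf7 was at 74.2 CPM against 30.5 to 35.1 CPM. The target gene Axin2 was at 77.6 CPM against 40.8 to 71.7 CPM. In all, 9 of 11 Wnt genes were tested, and 2 were higher and 1, Wnt10a, was lower (20.3 CPM against 200.4 CPM in Intermediate state). Of 3 FGF and ERK genes tested none was higher and 1, Spry2, was lower (10.5 CPM). With so few genes, these counts are not set apart from the 6.19% higher and 9.2% lower of all genes. Of the delivered factors, Sall4 was at 48.0 CPM, lower than in ParE (149 CPM), Jdp2 at 17.1 CPM against 15.7 to 118 CPM, and Esrrb at 3.79 CPM against 2.99 to 23.9 CPM. Whether these UMIs come from the viral or the cell's own copy cannot be told from counts per gene.

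Some cell cycle genes were higher than in the pooled cells, among which the Intermediate state cells had the least of them. All 12 G2/M genes were tested, 5 were higher by at least 2-fold, and the median was 0.89. Mki67 was at 164 CPM in Placenta-like cells, 187 CPM in ParE, 152 CPM in Endothelial and 61.4 CPM in Intermediate state cells. Of 12 S phase genes 1 was higher, a share near the 6.19% of all genes, with Rrm2 at 179 CPM against 47.4 to 141 CPM. Among genes that respond to cell dissociation and heat, Fos, Fosb, Egr1 and Ier2 were lower, while the near-identical heat shock genes Hspa1a (13.47 CPM) and Hspa1b (37.5 CPM) were higher than in every other BMP4+ annotation (8.25 CPM or less).

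The Placenta-like cells were then clustered alone, which gave 4 groups (Leiden resolution 0.5), called A to D here in order of their Gcm1 level. They are described by their leading genes and get no cell type name, and because they were made from these genes their differences are a description. Group A (97 cells) had Gcm1 at 84.4 CPM (74.2 to 95.7) and Phlda2 at 7683 CPM. Group B (71 cells) had Gcm1 at 62.0 CPM (52.4 to 72.8) and Phlda2 at 4026 CPM. In groups C (96 cells) and D (121 cells) Gcm1 was at 15.5 CPM (11.4 to 20.6) and 14.0 CPM (10.4 to 18.5), and Phlda2 at 1617 and 1690 CPM. The 30 leading genes together had medians of 126, 137, 19.8 and 23.0 UMIs per 10000 in A, B, C and D. The sum was thus higher in A and B than in C and D. Abundant genes such as Phlda2 weigh most in it, and not every leading gene followed it. Cldn3, for one, was at 97.9 CPM in A and 131 CPM in D. Still, 25 of the 30 leading genes, which were chosen as high in these cells together, were over 2 times the level of the other BMP4+ cells in all 4 groups. The other 5 (Slc13a4, Trpv2, Hamp, Eps8l2 and Cxcl16) were so in every group but C.

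Group A was led by Kcnk1 (128 CPM, against 30.3 CPM in the other groups), Phlda2, Ldoc1 (249 CPM), a retrotransposon-derived gene active in placenta, and Gcm1, with Rad51ap1 and Troap of the cell cycle. It combined the most Gcm1 with cycling genes, as Mki67 was at 218 CPM (201 to 236). Vim was at 61.6 CPM and Krt7 at 7.26 CPM. Group A thus had little of the mesenchymal filament and little of Krt7.

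The 10 leading genes of group B include Krt7, Gjb2, Sbsn, Tgm2, Serpinb9e, Myl4 (179 CPM), a myosin light chain, Tulp1 (85.0 CPM), 1600025M17Rik and 1700011M02Rik. Krt7 was at 186 CPM (169.5 to 205), against 1.32 to 14.0 CPM in the others, the gap junction gene Gjb2 at 320 CPM (297 to 343), against 2.63 to 22.5 CPM, the suprabasal epidermal gene Sbsn at 276 CPM, the transglutaminase gene Tgm2 at 160.5 CPM and the serpin gene Serpinb9e at 50.3 CPM. The interferon-induced gene Rsad2 (58.2 CPM) was also a leading gene, and Isg15, looked up for that reason, was at 143 CPM against 9.55 to 25.5 CPM. Krt8 was at 2298 CPM, Rhox6 at 1651 CPM and Slc22a3 at 119 CPM, the highest of the 4 groups for each. Cycling genes were lowest here, with Mki67 at 29.3 CPM (22.9 to 37.1) and a summed G2/M list of 480.5 CPM, against 1029 to 2675 CPM. Ascl2 and Krt14 also peaked here, at 17.2 and 114 CPM.

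Group C was led by Pitx1 (149 CPM), Grrp1, Alox5ap, Nrp1 and Sox17 (68.5 CPM), of which Pitx1 and Sox17 belong to the primitive endoderm list. Its sum over that list was 722 CPM, against 248 to 382 CPM in the other groups and 3397 CPM in ParE cells, and most of it came from Cited1 (350.0 CPM, against 165.5 to 244 CPM) and Pitx1. Sox7 (12.5 CPM), Lama1 (37.2 CPM) and Amn (34.6 CPM) were also highest in C. Pdgfra was at 39.8 CPM in C and 31.7 CPM in D, with counting intervals that overlap. Dab2 (6.91 CPM, 21 UMIs), Pth1r (5.93 CPM, 18 UMIs) and Cubn (1.65 CPM, 5 UMIs) were not higher in C than in the other groups. Their counting intervals in C overlap those in B. Gata6 was at 8.23 CPM in C and 11.2 CPM in D. Group C had the most Mki67 (297 CPM) and Cdx2 (14.2 CPM) and the least Krt8 (344 CPM) of the 4 groups. Slc22a3 was at 2.31 CPM and Hand1 at 1.65 CPM, while Rhox6 was at 314 CPM.

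Group D was led by Dcn, Ptn, Tagln (161 CPM), Igfbp5 (332 CPM) and Bmp4 (35.4 CPM), and its leading genes also include Samd5, Pcdh7, Gpnmb, Stmn2 and Gpc4. Vim was at 648 CPM and Col1a1 at 46.6 CPM, against 867 and 281 CPM in Intermediate state. Hand1, at 24.4 CPM, was highest here. The 30 leading genes of the Intermediate state cells had a median of 35.4 UMIs per 10000 in group D, against 5.90, 19.9 and 8.10 in A, B and C. Among all Placenta-like cells, 114 (29.6%, exact 95% interval 25.1 to 34.4%) exceeded the 10th percentile of Intermediate state cells for these genes, against 11.9% of ParE and 15.6% of Endothelial cells. For the ParE genes 13 Placenta-like cells (3.38%) exceeded the like limit, against 1.17% of Endothelial and 0.295% of Intermediate state cells. For the Endothelial genes 17 (4.42%) did, against 4.13% of ParE and 6.7% of Intermediate state cells. The part of mixed droplets in these values was not tested. Scrublet called none of the 11335 BMP4+ cells a doublet, which gives no usable call, and whether doublets were removed before deposit is not given in the sources used here. Its median score was 0.0414 in Placenta-like, 0.0208 in ParE, 0.0253 in Endothelial and 0.047 in Intermediate state cells. The 6% of cells with the highest scores included 8.31% of Placenta-like, 10.3% of ParE, 6.68% of Endothelial and 4.65% of Intermediate state cells.

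**Figure D4:**
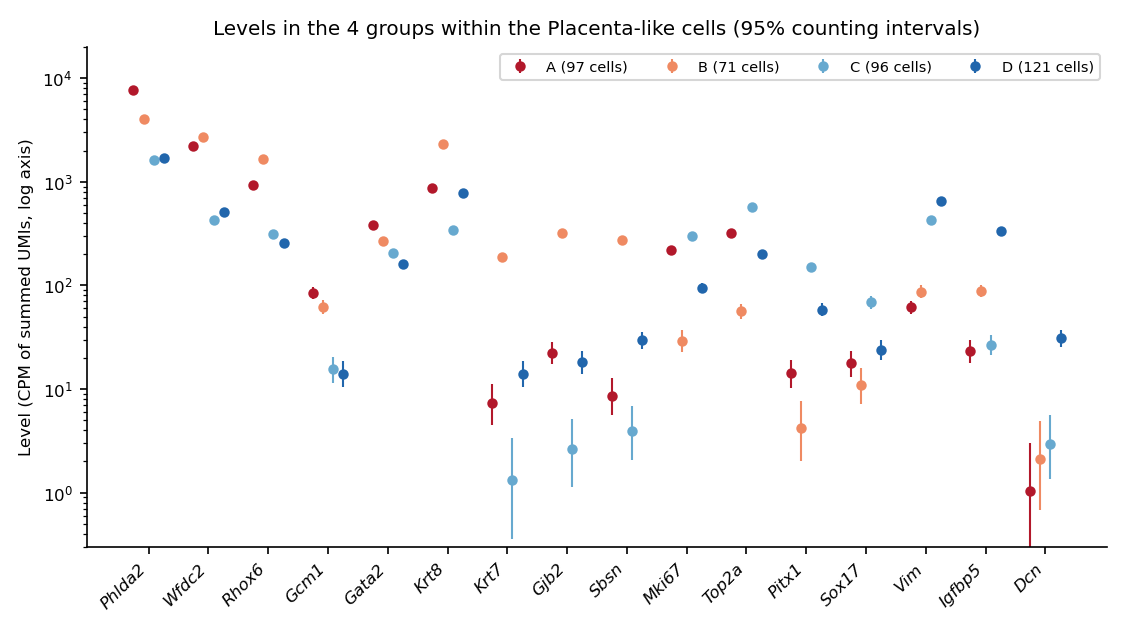
Levels of 16 genes in the 4 groups within the Placenta-like cells, in CPM of summed UMIs on a log axis with 95% counting intervals. Phlda2, Wfdc2, Rhox6 and Gcm1 are higher in groups A and B, Krt7, Gjb2 and Sbsn in B, Pitx1 and Sox17 in C, and Vim, Igfbp5 and Dcn are highest in D, while Mki67 and Top2a are lowest in B.

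Finally, the bulk libraries of the same reprogramming, which had no part in the annotation, were read for the leading genes. Each day and condition is 1 library in FPKM, so no test was made, and in bulk fewer cells of a type and less RNA per cell cannot be told apart. At day 7 of JGES, 24 of the 30 leading genes reached 1 FPKM in either library, and 8 were higher and 2 lower with BMP4 by at least 1 on the log2(FPKM + 1) scale. Among all 15347 genes, 10.3% were higher and 13.8% lower. The median change of the leading genes was 0.729 and that of all genes -0.135. The 5 largest increases were those of Phlda2 (2.809 FPKM without and 31.7 FPKM with BMP4), 3830417A13Rik (0.462 and 10.0 FPKM), Rhox9 (0.864 and 5.97 FPKM), Prph (1.95 and 9.42 FPKM) and Slc22a3 (listed at 0 and 2.40 FPKM). The 5 largest decreases were those of Tfap2c (13.6 and 1.89 FPKM), Cxcl16 (3.02 and 0.557 FPKM), Wfdc2 (7.03 and 3.64 FPKM), Cldn3 (14.5 and 9.45 FPKM) and Dkkl1 (1.41 and 1.08 FPKM).

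The 6 markers also differed among themselves. Krt8 was at 75.6 FPKM with and 8.02 FPKM without BMP4, and Gata2 at 31.1 and 3.50 FPKM, while Spint1 was at 11.8 and 12.4 FPKM, St14 at 7.40 and 5.01 FPKM and Ovol2 at 2.45 and 4.51 FPKM. Of the 6, 2 were higher by at least 2-fold (Krt8 and Gata2) and 1 was lower (Tfap2c). Gcm1, at 41.2 CPM in Placenta-like cells and 0.529 CPM or less in every BMP4- annotation, was at 1.21 FPKM with and 0.187 FPKM without BMP4 at day 7, but listed at 0 with and at 0.680 FPKM without BMP4 at day 3.

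Over time, the median of the leading genes was furthest above that of all genes at day 7, while single genes differed earlier in both directions. Prph was at 7.45 FPKM with BMP4 and listed at 0 without it at day 3, and Tfap2c at 0.385 and 4.75 FPKM. The median change of the leading genes was -0.289 at day 1 (11 genes), -0.108 at day 3 (14 genes) and -0.118 at day 5 (20 genes), beside -0.017, -0.094 and -0.177 for all genes. In BMP4+ libraries Phlda2 was at 1.29, 8.55, 10.6 and 31.7 FPKM at days 1, 3, 5 and 7, against 1.80, 6.05, 11.3 and 2.809 FPKM without BMP4. Rhox6 was listed at 0 to day 3 in both conditions and was at 0.808 and 9.74 FPKM with BMP4 at days 5 and 7, against 1.82 and 2.202 FPKM without. Gata2 differed from the first day, at 39.0 FPKM with and 16.6 FPKM without BMP4.

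**Figure D5:**
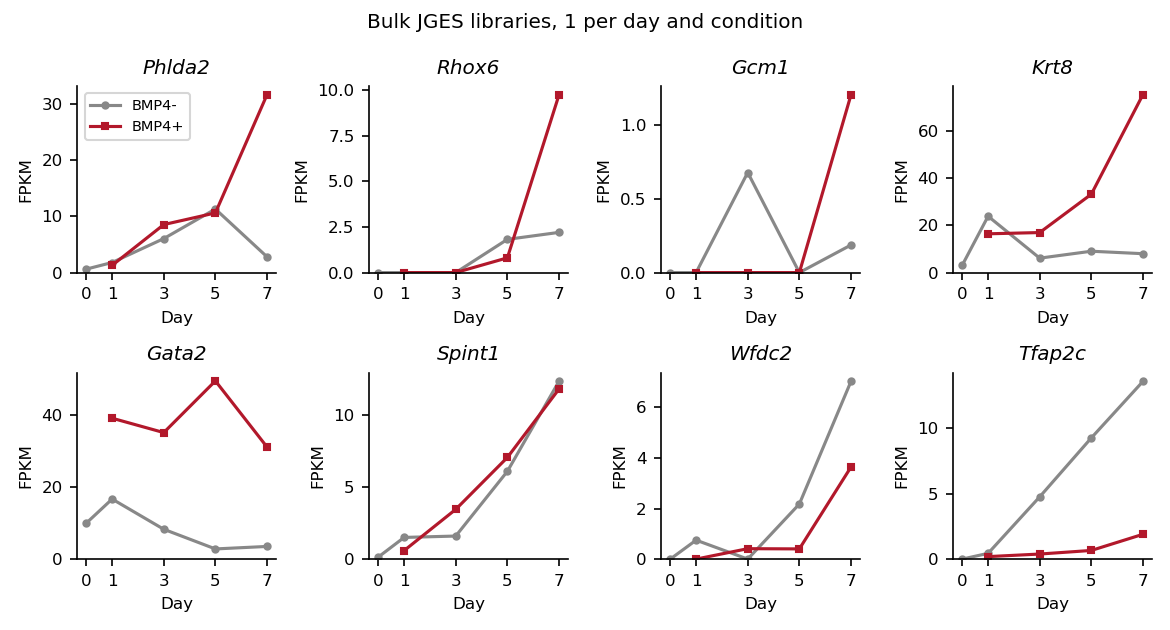
FPKM (y axis) of 8 genes by day (x axis) in bulk JGES libraries with BMP4 (red squares) and without (grey circles), 1 library a point and no error bars. Phlda2 and Rhox6 are higher with BMP4 at day 7 and Gata2 from day 1, Gcm1 is higher with BMP4 at day 7 and without it at day 3, Spint1 reaches a like level in both at day 7, and Tfap2c and Wfdc2 are higher without BMP4 at day 7.

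Other factor sets were compared in the table of 8 libraries of day 7, side by side and without a test. The median change with BMP4 of the leading genes was -0.386 in JGE (14 genes), 0.120 in JGEO (16 genes) and 0.129 in JGESO (24 genes), beside -0.047, 0.040 and 0.010 for all genes, where O stands for Oct4. In JGESO the levels themselves were high in both conditions, with Spint1 at 43.4 FPKM without and 45.3 FPKM with BMP4, St14 at 27.1 and 22.2 FPKM, and Wfdc2 at 19.2 and 24.9 FPKM. Phlda2 was at 1.22 and 7.68 FPKM in JGE.

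With SALL4 alone and no BMP4, 27 leading genes reached 1 FPKM at day 11 in the wild-type library or in that of delN12, a SALL4 without its N-terminal NuRD-binding residues. Of these, 8 were higher in delN12 by at least 2-fold and none was lower, with a median difference of 0.630, beside 6.55% of 13946 genes higher, 6.58% lower and a median of 0.005. At days 1, 5 and 9 the median difference of the leading genes was -0.063, 0.620 and 0.216, so it was not in 1 direction at all days. Rhox6 was at 14.7 FPKM in delN12 and 2.13 FPKM in the wild type, Rhox9 at 3.004 and 0.261 FPKM, Krt8 at 169 and 31.8 FPKM, and Tfap2c at 13.9 and 2.36 FPKM. Phlda2 was at 4.36 and 5.09 FPKM, and Gcm1 at 0.499 and 0.0566 FPKM. The delN12 library thus had more of several leading genes, Phlda2 not among them.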

How the data were processed

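Of the series, the day 7 scRNA-seq libraries with and without BMP4 and the 25 bulk RNA-seq columns were used, and the peak lists were not used here. The single-cell table, deposited by the authors, holds raw UMI counts from STARsolo (mm10, GENCODE vM21), with condition, cell type and barcode in each column name. The 10749 columns of MEF and ESC cells belong to no sample analysed here and were left out. The bulk tables, deposited by the authors, hold FPKM values. The submitters' processing notes name Trim Galore 0.6.4, HISAT2 2.2.1 and StringTie 2.2.1. Their depth is unknown, and FPKM depends on all other genes of a library.

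UMIs were summed over the cells of an annotation and scaled to CPM, so deep cells weigh more. Poisson and Clopper-Pearson intervals are exact, at 95%, and cover counting error only. A gene was tested at 10 CPM or more in either group, and called at a difference of at least 1 in log2(CPM + 1), which understates changes of low genes. Folds are ratios of CPM. Named genes are the 6 markers of the study, list members, the 30 leading genes (at least 20 CPM, a UMI in at least 25% of cells) and the 15 lowest (at least 50 CPM in the other cells). Named too are the 10 leading each inner group, and the 5 leading genes with the largest bulk increase and the 5 with the largest decrease. Bulk changes are differences of log2(FPKM + 1) for genes at 1 FPKM or more. Inner groups came from scanpy 1.11.5 (2000 variable genes, 15 components, 15 neighbours). Members, lists and rules were chosen with earlier results of these data known. The difference calls and intervals were tested on simulated data, with an outcome that is not reported here. Alternatives changed the weighting of cells, the reference, the pseudocount, the filter, the cells kept, the thinning and the clustering resolution.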

Additional observations from a re-analysis of the deposited data

How the results depend on the processing

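Of 10 alternatives for the comparison of all genes, 2 (on mixed cells) were chosen after seeing the data. The number of higher genes was 224 with a limit of 50 CPM, where fewer genes are tested, and 377 to 789 under the others. The number of lower genes was 228 with that limit, 1693 with no filter on level, where more genes are tested, and 582 to 1037 under the others. The median of the 6 markers was 3.04 and moved to 2.92 against the mean of the 3 other annotations with equal weight, 3.23 with a pseudocount of 0.1 CPM, 2.59 with 5 CPM, and 3.18 without Placenta-like cells high for leading genes of another annotation (248 cells left, 729 genes higher and 1037 lower). The stratified epithelium list turned from 1.503 to -0.015 with no filter, since its members under 10 CPM then enter. The bulk median of the leading genes was 1.19 with a pseudocount of 0.1 FPKM and 0.726 to 0.822 under the other 3 alternatives. Clustering gave 4 groups at resolution 0.3 and 8 at resolution 1. Of the named genes' log2 differences under these alternatives, 193 moved beyond their counting interval, 297 did not, and none of at least 2-fold changed sign. With 12 to 58 UMIs, levels such as those of Elf5 and Cdx2 are limited by depth. No paired analysis was made, and the groups compared hold 1 library each and share no more than 1 replicate number. Bulk libraries could be matched by day in a model that assumes the same difference at each day, which was not run.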
